A study of Drosophila melanogaster with 2 samples.

Results

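The strongest candidate peaks that the conservative list does not hold were examined in a chromatin immunoprecipitation sequencing (ChIP-seq) series on GATAe in Drosophila melanogaster. The peaks are 1000 regions of the ranked list, in which each row pairs a peak of 1 replicate with a peak of the other. They were selected on measured values: among the 58899 of 62335 ranked peaks on the chromosome arms that share no base with any of the 3047 conservative peaks, the 1000 with the highest lower-of-both-replicates signal were kept. The authors give this signal for every peak as its strength, with no stated unit. The last peak kept had a lower signal of 23.566 and the first peak left out had 23.5654, so the cut falls in a dense run of near-equal values. All 1000 are described here, and no filter removed any of them.

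The flies were transgenic, of the strain labelled GATAe-GFP, and expressed a GATAe-eGFP fusion from an inserted transgene. Chromatin came from whole embryos collected at 0 to 24 h, was sheared by sonication to 200 to 800 bp, and went through precipitation by an anti-GFP antibody. The 2 biological replicates form 1 group, so every embryonic tissue and stage is pooled in each sample and no condition was set against another. The promoter or genomic context that drives the fusion is not given in the labels, and a control experiment that they name was not used here. The files hold peak lists only. No read depth can be given for either replicate, and the intervals given below are 95% intervals that cover counting error alone and treat peaks as independent.

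GATA factors are zinc-finger proteins that bind short DNA sites with a GATA core, preferring an A or T before it and an A or G after it. In Drosophila, Serpent specifies the endoderm, haemocytes and fat body, and GATAe acts after it in the endoderm and keeps the identity of the midgut. The irreproducible discovery rate (IDR) ranks peaks by how well their strength is matched in another replicate, and low values mark well-matched peaks.

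The sequences of 7 candidate summits are given as examples. Summits with the GATA word, defined below, are over-represented among them: of all 1000 summits, 625 held none. The first pair belongs to the strongest candidates and has no GATA word within 50 bp of the summit, the next 4 are strong candidates with it, and the last is a candidate at nub, a transcription factor gene of the midgut. Capitals mark GATA with an A or T before it and an A or G after it, on either strand, called the GATA word from here on. Sequences are the plus strand of the RefSeq copy of dm6, 5′ to 3′, and each spans 101 bp centred on the summit. The positions are chr2L:481046-481146 in an intron of ush, chr3R:11761007-11761107 in an intron of Lk6, chr3R:16236950-16237050 in an intron of tara, chr3R:10388827-10388927 in an exon of cwo, chr3R:27148830-27148930 in an intron of CG6051, chr2L:12003524-12003624 between Hacd1 and Rh5, and chr2L:12589594-12589694 in an intron of nub.
ush: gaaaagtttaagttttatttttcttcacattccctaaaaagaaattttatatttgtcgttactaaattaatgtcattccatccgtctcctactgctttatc
Lk6: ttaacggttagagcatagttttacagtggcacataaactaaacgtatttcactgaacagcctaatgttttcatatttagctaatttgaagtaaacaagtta
tara: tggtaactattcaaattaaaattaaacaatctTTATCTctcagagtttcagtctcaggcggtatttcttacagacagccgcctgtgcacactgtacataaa
cwo: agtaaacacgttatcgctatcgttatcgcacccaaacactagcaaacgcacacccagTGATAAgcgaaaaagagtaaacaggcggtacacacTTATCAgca
CG6051: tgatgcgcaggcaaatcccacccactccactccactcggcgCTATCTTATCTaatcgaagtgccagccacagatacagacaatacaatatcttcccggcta
Hacd1: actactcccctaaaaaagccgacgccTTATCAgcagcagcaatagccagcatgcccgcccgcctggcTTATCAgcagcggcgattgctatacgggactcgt
nub: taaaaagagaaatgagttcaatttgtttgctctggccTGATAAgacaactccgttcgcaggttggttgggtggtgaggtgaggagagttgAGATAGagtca

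The 1000 candidates fell into 2 kinds by their IDR. The IDR of 86 was at or under 0.01, the value at which the conservative list ends, and that of the other 914 ran from just over 0.01 to 0.0473 with a median of 0.0175. In the ranked list, 3146 peaks had an IDR at or under 0.01. Of these, 3047 were the conservative list itself, peak for peak, and 99 were not in it, 86 on the arms and 13 off them. All 86 were among the 1000 chosen. None of the 86 shared a base with a peak of any of the 4 deposited thresholded lists. In the ranked lists behind the other thresholded lists, 61 of the 86 overlapped a peak with an IDR at or under 0.01 in replicate 1, 44 did so in replicate 2, and 74 did so in the second series-level list. The deposited record names 1 further input for the thresholded lists that the ranked lists do not have. That input is not described, and its part in the absence of these 86 peaks was not tested.

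Of the 914 others, 69 overlapped a peak of the second series-level thresholded list. Replicate 1's own thresholded list overlapped 71 and replicate 2's overlapped 36. A total of 125 overlapped at least 1 of these lists, and none overlapped those of both replicates.

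The columns of the ranked list carry no replicate names, and the replicate behind each signal was read from identical peaks. Of the 1000 first matched peaks, 983 are identical in coordinates, summit and signal to a peak of replicate 1's ranked list and 0 to one of replicate 2's. For the second matched peaks, 963 are identical to a peak of replicate 2's list and 0 to one of replicate 1's.

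The 1000 candidates, chosen by signal, had a median lower signal of 25.5, with a range of 23.6 to 389. The 86 with a low IDR had a median of 39.1 (26.0 to 389), and the 914 had a median of 25.3 (23.6 to 30.1). Conservative peaks had a median of 41 (17.6 to 449), and 45.7% of them lay under the median of the 86. The signal is what the peaks were chosen by, so these ranges are a description. The range of the 914 also holds 446 of the 3032 conservative peaks (14.7%).

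**Figure D1:**
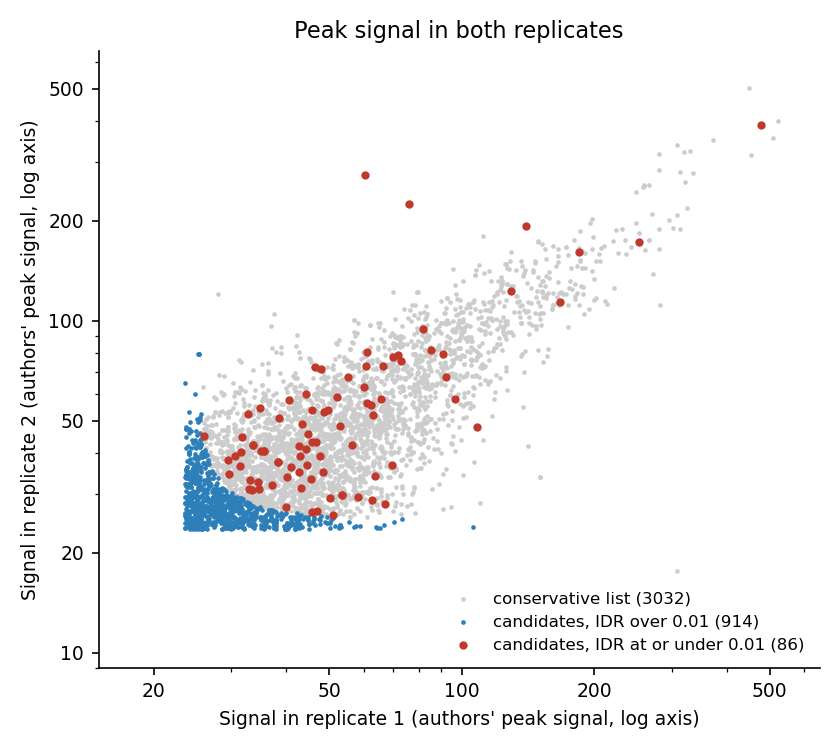
Authors' peak signal in replicate 1 (x axis) and replicate 2 (y axis), both on log axes, for the 86 candidates with an IDR at or under 0.01 (red), the 914 with a higher IDR (blue) and 3032 conservative peaks on the arms (grey). Each point is 1 peak. The strongest of the 86 stands at 477 and 389. The lower signal of the 914 runs from 23.6 to 30.1, a range that also holds 446 conservative peaks.

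The choice of peaks required a high signal in both replicates, so how near the 2 signals lie is a description of the chosen peaks. The median ratio of the larger to the smaller signal was 1.19, 527 candidates were higher in replicate 1, and 39 (3.90%) differed over 2-fold, against 4.09% of conservative peaks. Requiring a high signal in both replicates mattered to which peaks were kept. Of the 1000 candidates that replicate 1 alone ranks highest, 247 were among the chosen peaks, of those ranked by replicate 2 alone 277 were, and 66 were in both single-replicate sets.

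The candidates are not 1000 separate places. Merging overlapping peaks leaves 870, 256 candidates overlap another candidate, and 248 share both matched replicate peaks with another, so that such rows repeat the same signals. For 118 candidates, the peak's own signal over both replicates was under the lower of its 2 matched signals. Of these, 114 overlapped another candidate. The lowest own signal was 2.04 among the candidates and 2.15 in the conservative list. The summits of all these rows are kept in the counts below. Peaks were 360 bp wide in 993 cases. The 6 candidates with a lower signal over 100 were all narrower, 288 bp at most, and so were 192 of 222 conservative peaks over that signal.

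The strongest candidate lay on 2L at 480945 to 481232, in an intron of ush, with signals of 477 in replicate 1 and 389 in replicate 2. U-shaped is a zinc-finger protein of the FOG family and a partner of GATA factors. By its lower signal this peak was number 3 of all ranked peaks on the arms, with 2 conservative peaks above it. The nearest start of a protein-coding gene, 1408 bp away, was that of cbt, which encodes the zinc-finger transcription factor Cabut. Beside it were candidates 439 bp from that start (60.9 and 56.4 in replicates 1 and 2) and 252 bp from the start of CG4297 (81.5 and 94.6). The window of ush also held 8 conservative summits, the nearest conservative peak being 3304 bp from the strongest candidate.

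The next 5 candidates by strength lay at 5 genes. Lk6, a kinase that acts on the translation factor eIF4E, had an intronic peak at 253 and 173. A peak 339 bp from the start of larp, which encodes an RNA-binding protein, had 185 and 161. Replicate 2 was the higher one at the intronic peak of Unc-115a, an actin-binding protein, with 140 in replicate 1 and 193 in replicate 2. The histone methyltransferase gene trx had 129 and 123 in an intron. At tara, a trithorax-group gene, the intronic peak had 167 and 114. The first 6 candidates thus exceeded 100 in both replicates, and of these only the peak at tara held the GATA word.

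The rest of the 20 strongest had lower signals from 58.2 to 81.6. A peak 39 bp from the start of Unc-115a had 85.3 and 81.6. Others were within 500 bp of the starts of Sirt6, an NAD-dependent deacylase (90.9 and 79.5), and aus (71.9 and 78.7). InR, the insulin receptor, had an intronic peak at 69.8 and 77.7. The exonic peak at cwo, a repressor of the circadian clock, had 91.9 and 67.7. Further peaks lay near COX7AL2 (66.5 and 72.9), at Hel89B (61.0 and 80.4, and 60.7 and 73.2), in CG6051 (60.05 and 63.1) and near CG6966 (96.4 and 58.2). Of the 20, 6 held the GATA word, namely those at tara (position 6), Unc-115a (position 7), aus, InR, cwo and CG6051.

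A pair of candidates among the 20 strongest stood apart from the agreement of the replicates. They lie near the end of the X arm, at starts 23216951 and 23222186. The first had 60.4 in replicate 1 and 274 in replicate 2, and the second had 75.8 and 225. The nearest protein-coding start, of ATbp, is 111128 bp from the first and 116363 bp from the second, and the second lies in an annotated transposable element. Over all candidates, 10 (1.00%, interval 0.481 to 1.83) had a summit in a transposable element, against 5 of 3032 conservative peaks (0.165%).

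The GATA word was about 1.89 times as frequent at candidate summits as beside them. It was present within 50 bp of 375 of 1000 summits (37.5%, interval 34.5 to 40.6), against 19.8% of windows of the same width centred 500 bp to either side. Of all 1356741 such windows along the arms, 16.6% hold it. Where summit and flanks differed, the summit was above the mean of its flanks in 62.4% of candidates (58.3 to 66.4). Since each summit has 2 flanks, this count does not reach 50% when the shares are equal and low, so the flanks were also taken 1 at a time. Where summit and flank then differed, the word was at the summit in 71.6% (66.9 to 75.9) on the side of lower coordinates and 71.1% (66.5 to 75.4) on the other. The word GATAAG, which overlaps the GATA word wherever an A or T precedes it, stood at 18.9% of summits and 5.75% of flanks, a ratio of 3.29. Bare GATA was at 67.0% and 48.2%. A single GATA word was present at 278 summits, 2 at 82, and 3 or more at 15, with 4 the highest.

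Both kinds of candidate carried the word above their flanks. Of the 86, 28 did (32.6%, 22.8 to 43.5) against 15.7% of flanks. Taken with 1 flank at a time, the word was at the summit in 70.6% (52.5 to 84.9) and 75.9% (56.5 to 89.7) of the peaks that differed, and with both flanks averaged in 60.5% (44.4 to 75), an interval that includes 50%. Of the 914, 347 did (38.0%) against 20.2% of flanks. The difference between the 86 and the 914 was −5.41 points (−14.9 to 5.50), an interval that includes 0. The share did not climb with strength. In 5 groups of 200 from the strongest to the weakest, its share was 37.5%, 37.0%, 36.0%, 32.0% and 45.0%.

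**Figure D2:**
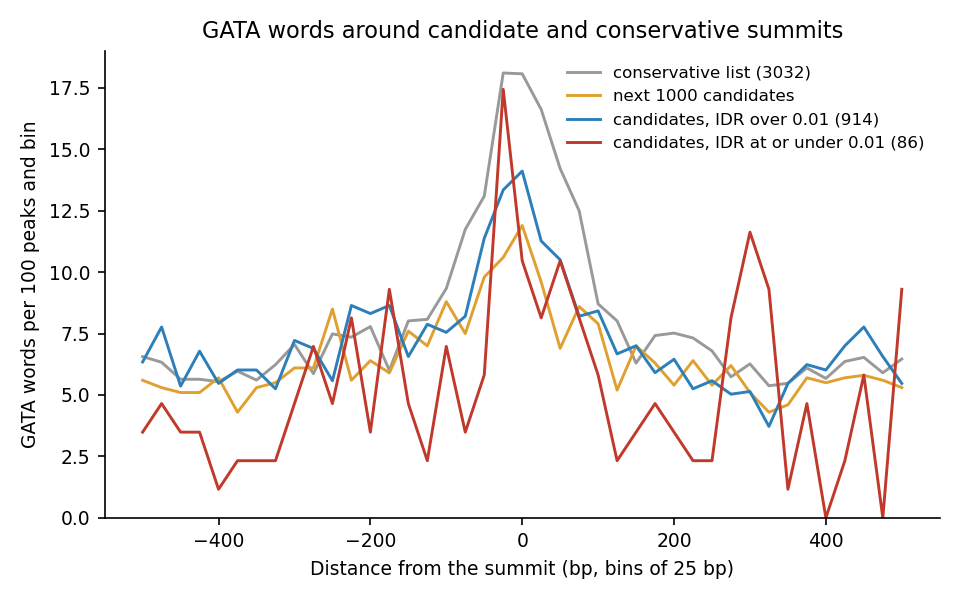
GATA words per 100 peaks (y axis) in bins of 25 bp by distance from the summit in bp (x axis). Lines are the conservative list (grey), the next 1000 candidates (orange), the 914 candidates with an IDR over 0.01 (blue) and the 86 with a lower one (red, few words a bin and so uneven). At the summit bin the 914 reach 14.1, between 11.9 for the next 1000 candidates and 18.1 for the conservative list.

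Compared with the conservative list, fewer candidates held the word. The conservative share was 46%, and the difference was −8.54 points (−12.0 to −5.02). For GATAAG the conservative share was 28.9% and the difference −9.96 points (−12.8 to −6.96). For the 86 the difference was −13.5 points (−22.6 to −2.87), and against the 1000 weakest conservative peaks it was −8.94 points (−18.4 to 1.95), an interval that includes 0. Set against the 1000 weakest conservative peaks, at 41.5%, the difference of all candidates was −4.0 points with an interval of −8.26 to 0.284 that includes 0. For GATAAG the difference from these 1000 was −6.70 (−10.3 to −3.06). The next 1000 candidates had the word at 30.1%, so the chosen ones exceeded them by 7.40 points (3.25 to 11.5). For GATAAG that excess was 1.00 point (−2.40 to 4.40). The last 1000 candidates by lower signal had the word at 16.2% of summits and 16.6% of flanks. Their signals were 2.00 to 2.51 in replicate 2 and 9.67 to 99.8 in replicate 1. Taken as whole lists, the share thus fell from the conservative list through the chosen candidates to these last 1000, where summit and flank shares were close. The 86 alone, at 32.6%, differed from the next 1000 by 2.46 points (−6.98 to 13.3), an interval that includes 0.

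**Figure D3:**
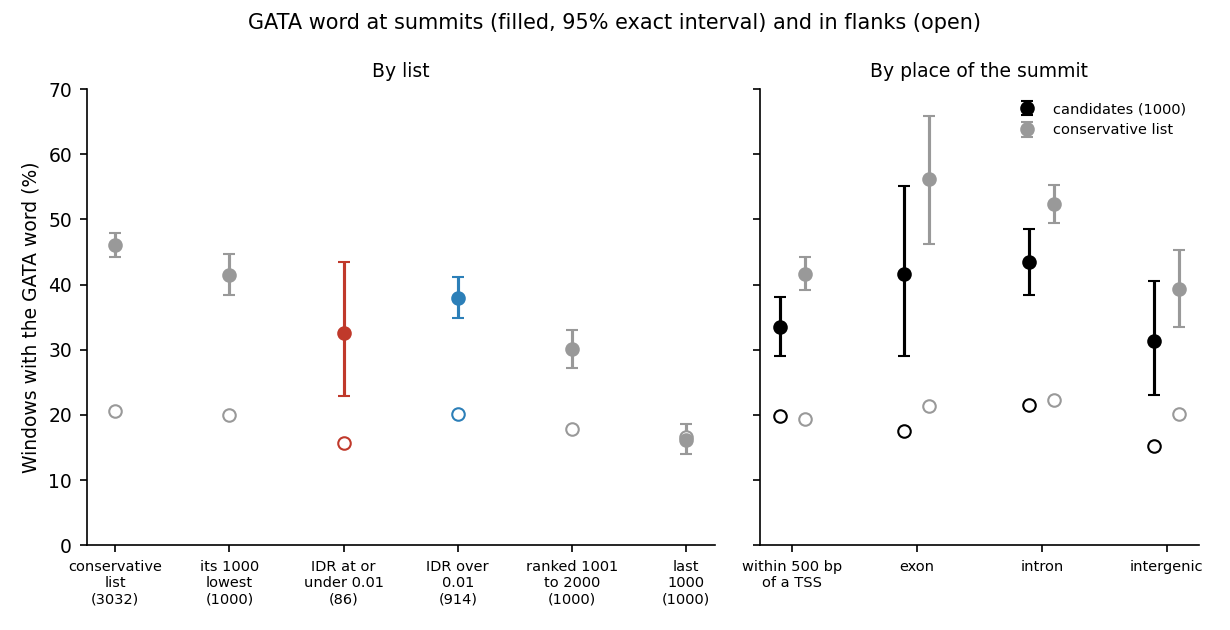
Share of 101-bp windows with the GATA word (y axis, %) at summits (filled, with 95% exact intervals) and in the flanks (open), by list (left) and by place of the summit (right; black, the 1000 candidates; grey, the conservative list). Numbers in brackets are peaks. The chosen candidates lie between the conservative list at 46% and the last 1000 candidates by lower signal at 16.2%. The flanks of the lists in the left panel lie between 15.7% and 20.6%.

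Of the other words, most were about as frequent at the summits as in the flanks. GAGAG, the site of GAGA factor, was at 14.6% of candidate summits and 15.1% of flanks. It was more frequent than at conservative summits (12%) by 2.63 points (0.248 to 5.20), but against the 1000 weakest conservative peaks the difference was 2.20 points (−0.800 to 5.20), an interval that includes 0. TATCGATA, the site of the promoter factor DREF, was at 12 summits, 10 of them within 500 bp of a gene start, and the 1.20% compares with 0.400% of flanks and 0.277% of all windows on the arms. It contains bare GATA but not the GATA word. CACACA was at 9.50% of summits and 9.80% of flanks, CAGGTA, bound by Zelda, at 2.40% and 2.30%, and the E-box CACGTG at 0.500% and 1.10%.

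Gene starts and introns held most candidates. Within 500 bp of a transcription start site (TSS) were 442 summits (44.2%, 41.1 to 47.3), in exons 60, in introns 380 and between genes 118. The TSS share of the conservative list was 49.2%, and the difference was −4.98 points (−8.51 to −1.41). This difference depends on the settings: against the 1000 weakest conservative peaks it was 0.800 points (−3.54 to 5.14), and with candidates ranked by replicate 1 alone 2.92 points (−0.648 to 6.48). Exons held 2.54 points more of the candidates than of the conservative list (1.05 to 4.29). Against the next 1000 candidates both differences had the other sign. They were −4.30 points in exons (−6.72 to −1.91) and 6.80 at a TSS (2.49 to 11.1). Of the 86, 17 lay between genes (19.8%), above the conservative 9.23% by 10.5 points (3.41 to 20.2).

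The replicates weighed gene starts differently. Of the 1000 candidates that replicate 1 alone ranks highest, 52.1% were within 500 bp of a TSS, and of those ranked by replicate 2 alone 33.0%, a difference of 19.1 points (14.8 to 23.3). Within the chosen 1000 the gap was smaller: 46.5% of the 527 higher in replicate 1 and 41.6% of the 473 higher in replicate 2 (4.84 points, −1.32 to 10.9). Conservative peaks split in the same way had 52.8% and 43.3% (9.48 points, 5.81 to 13.1). Their GATA word shares differed the other way, 41.9% and 52.9% (−11.0 points, −14.6 to −7.33). For the word in the chosen 1000 the difference was −1.86 points (−7.85 to 4.14).

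The GATA word stood above its flanks in every place. It was at 43.4% of intronic candidate summits (flanks 21.6%), 41.7% of exonic ones (17.5%), 33.5% of those at a TSS (19.8%) and 31.4% of those between genes (15.3%). Against conservative peaks of the same place the differences were −9.00 points in introns (−14.7 to −3.21) and −8.17 at a TSS (−13.1 to −3.01). In exons and between genes the intervals of −29.3 to 1.29 and −17.6 to 2.51 include 0. Among the 86, 14 of 32 intronic summits had the word (43.8%, 26.4 to 62.3; flanks 12.5%) and 7 of 36 at a TSS (19.4%, 8.19 to 36.0; flanks 20.8%). This last split was chosen after its values were seen.

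The 86 low-IDR candidates were unevenly spread over the genome. On 3R lay 49 (57.0%, 45.8 to 67.6), on 2L 22, on the X 7, on 3L 5 and on 2R 3. Of the 914, 202 lay on 3R (22.1%), close to its 23.3% of the assembled length and to the 22.9% of conservative peaks. This pattern was noticed in the values and no test was made of it.

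**Figure D4:**
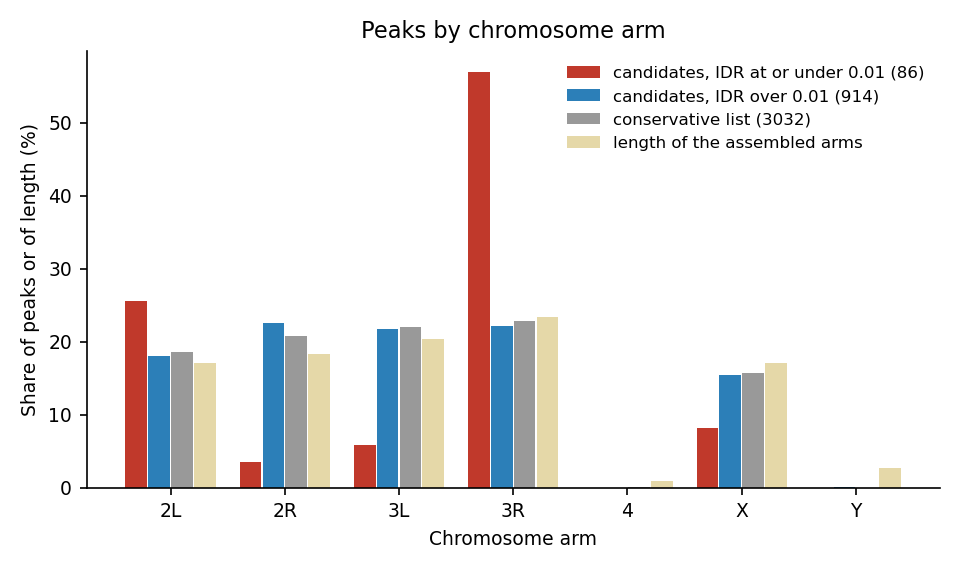
Share of peaks on each chromosome arm (y axis, %) for the 86 candidates with an IDR at or under 0.01 (red), the 914 others (blue) and the conservative list (grey), beside the share of assembled length (tan). The red bar of 3R stands at 57.0%, while the blue and grey bars of 3R stand at 22.1% and 22.9%, beside 23.3% of the length.

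Distances to other peaks were measured next. No conservative peak was within 1000 bp of any of the 86, and the median distance was 19529 bp. Of the 914, 142 were within 1000 bp of one, and the median distance was 7920 bp. Joined where the gap was at most 20 kb, the 86 formed 47 runs. Of these, 10 runs held 3 or more peaks and 39 peaks in all, 10 held 2, and 27 held 1. Overlapping peaks were counted separately: the shortest run of 2 spanned 0.561 kb, less than 2 separate peaks of 360 bp would. No conservative peak lay inside the span of any run of 2 or more. Another peak of the same set lay within 20 kb of 68.6% of the 86, 50.8% of the 914 and 82.4% of the conservative peaks. The sets differ in number of peaks, and overlapping peaks were not merged for these shares.

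The run with the most peaks had 7 in 10.5 kb on 2L between 12002057 and 12012567, from the promoter of Hacd1, which encodes a fatty acid elongation enzyme, to the surroundings of Rh5, a photoreceptor opsin. Its signals ran from 43.4 to 63.1 in replicate 1 and from 35.1 to 60.1 in replicate 2, and 3 of the 7 held the GATA word. At tara, 6 peaks covered 26.6 kb of 3R between 16224289 and 16250929. They began upstream of the gene at 72.8 and 75.5, peaked in the intron at 167 and 114, and held the word at 3. At Kdm2, a histone demethylase gene, 5 intronic peaks lay within 3.99 kb between 9053817 and 9057803 on 3R, with signals of 40.2 to 108 in replicate 1 and 33.9 to 67.5 in replicate 2. At InR, all 3 peaks held the word. None of the 3 at Hel89B and the neighbouring mor, a subunit of the Brahma remodelling complex, held it, and neither did any of the 3 at cbt and CG4297.

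Candidate summits fell in the windows (gene body and 2 kb upstream) of 1002 of 13968 protein-coding genes, 7.17% of all. Of these, 625 genes, 4.47% of all, had no conservative summit in the window. The other 377 had both, which is 37.6% of the genes with a candidate and 14.2% of the 2657 genes with a conservative summit. The 86 reached 63 genes and the 914 reached 952, and 99 candidates lay in no window. A total of 232 genes had 2 or more candidates. Windows of neighbouring genes overlap, so a peak can count for several genes, and a window does not show which gene a peak acts on. A longer gene has a longer window, for example 122 kb at jing and 9.13 kb at dco. The shares of gene lists given below were not adjusted for this, and its part in them was not tested.

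Seen gene by gene, tara had the most candidates, 7, of which 6 were among the 86, and no conservative summit. Kdm2 had 6, of which 5 were among the 86, and again no conservative summit. Trl, which encodes GAGA factor, had 5 and CG42507, whose window shares 4 of these, had 4. Their lower signals were 24.8 to 26.5, and none held the GATA word. At jing, a zinc-finger gene, 5 candidates stood beside 4 conservative summits. CG5953, dco, bun, CG14434 and ush had 4 each. The kinase gene dco had no conservative summit, while bun, of the TSC-22 family, had 10.

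GATA factor genes themselves had weak candidates. Of the 5 genes, 3 had 1 (60%, against 7.17% of all protein-coding genes, not adjusted for gene length). All 5 had conservative summits, so those 3 did too. The candidate in an intron of srp had 35.3 in replicate 1 and 25.2 in replicate 2, that in an intron of GATAe had 23.6 and 30.7, and that 154 bp from the start of grn had 45.9 and 24.9. Those of srp and GATAe held the GATA word. None of the 3 was among the 86.

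Of 19 genes for endoderm and midgut transcription factors, 5 had a candidate (26.3%, against 7.17% of all protein-coding genes, not adjusted for gene length). All 5 also had a conservative summit, as 37.6% of all genes with a candidate did, and 12 of the 19 had a conservative one. The peak at nub, a marker of enterocytes, had 30.1 and 30.2 with 2 GATA words. Hnf4, a nuclear receptor of lipid metabolism, had 3 candidates, the strongest at 28.7 and 29.6. The homeobox gene cad had 25.9 and 27.8, also with 2 words. Candidates at hth and dve had lower signals of 25.6 and 24.6. Of 18 genes for midgut junctions and the apical membrane, 4 had a candidate, and the integrin genes if (25.7 and 28.2) and mew (24.3 and 27.7) had no conservative summit, unlike Fas3 and dlg1. Of 48 digestive enzyme genes, 1 had a candidate (2.08%), the serine protease gene Jon65Aiv, where replicate 1 gave 64.3 and replicate 2 gave 23.8. Of 33 vacuolar ATPase genes, 2 did, Vha55 (24.4 and 34.7) and Vha16-1 (37.9 and 24.1).

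Ecdysone response and signalling genes were next. Of 22 genes for the ecdysone response and nuclear receptors, 6 had a candidate (27.3%, against 7.17% of all, not adjusted for gene length). EcR, the ecdysone receptor, had 31.6 and 27.7, Eip75B had 28.9 and 27.4, and Hr4 had 26.4 and 39.3. The EcR partner usp, with 49.0 and 24.8 at 122 bp from the start, was the member of this list with a candidate and no conservative summit. In the epidermal growth factor receptor pathway, 4 of 18 genes had a candidate. The receptor gene Egfr had 3, the strongest at 23.8 and 37.7, and no conservative summit, while the repressor aop (27.1 and 35.2), the ligand vn (25.2 and 31.2) and the repressor cic had conservative ones. In the Dpp pathway 5 of 18 did, with the proteoglycan dally (32.9 and 28.3) and the receptor wit (28.2 and 30.6) strongest. In the JAK/STAT pathway 3 of 10 did, and the ligand upd3 (31.8 and 28.7) had no conservative summit, unlike the inhibitor Socs36E (28.1 and 29.99) and the phosphatase Ptp61F. The Wnt pathway had 1 of 21, the receptor fz2, and the Notch pathway 0 of 17.

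Genes of other embryonic tissues also had candidates. Of 25 muscle genes, 6 did (24.0%, against 7.17% of all, not adjusted for gene length). They were led by Mef2 (26.6 and 27.1), mbc (37.3 and 26.6) and kirre (26.0 and 37.2). Of 25 nervous system genes, 3 did, mbl, Syn and fne, with lower signals of 29.1, 28.0 and 24.1. Of 20 haemocyte genes, 3 did, namely ush, drpr (26.7 and 24.9) and Pvr (23.8 and 24.2). Of 19 fat body genes, 3 did, Lpin, Adh and Lsd-2, each with at least 1 GATA word. Each also had a conservative summit, as 37.6% of all genes with a candidate did. Of 15 genes for dorsal ectoderm, amnioserosa and heart, the FGF ligand genes pyr and ths had a candidate, with 2 and 3 words.

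Lists of ribosomal, chaperone and chromatin genes are read against the same 7.17%. Counts of genes with no conservative summit are read against 625 of all 1002 genes with a candidate. Of 86 cytosolic ribosomal protein genes, 6 had a candidate (6.98%), 5 of them with no conservative summit. All 6 peaks lay within 500 bp of a TSS and none held the GATA word, with RpL5 (26.4 and 26.7 at 72 bp from its start) and RpS14b (26.9 and 26.3 at 8 bp) strongest. Of 73 mitochondrial ribosomal protein genes, 4 did (5.48%), with mRpL47, mRpL12 and mRpL19 strongest and none with a conservative summit. Of 20 heat shock and chaperone genes, 3 did (15%), and Hsp22, CG4456 and Hsp67Bc share the same peak (45.1 and 24.4). Of 21 Polycomb, trithorax and GAGA factor genes, 3 did (14.3%), trx, mor and Trl. Within this list, trx and mor were the ones with peaks among the 86. The trithorax-group gene tara, with 6 peaks among the 86, is not in the list.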

How the data were processed

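The authors deposited peak lists on dm6 for 2 biological replicates, numbered per the labels. Which aligner and caller were run was not given in the sources used here. Each ranked list gives the deposited signal value of a peak, a score, and the IDR as −log10, per the values and column order of the files. The lower deposited signal of both matched peaks ranked the candidates, and an overlap was 1 bp or more. The score was used only to rank candidates in 1 alternative.

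Summit windows reach 50 bp to either side. Genes were those of the Ensembl annotation of the assembly, sequence was RefSeq's, and 99.8% of 30618 annotated start codons on the arms read ATG. Genes named are the nearest protein-coding ones to the 20 strongest candidates, up to 3 of each list by strongest candidate, and the 10 with most candidates. The genes hth, dve, mew, usp, Egfr, Hacd1 and Rh5 were named after their values were seen, and the cut of the 1000 by IDR was made with values known. The members, gene lists and comparisons were chosen with earlier results of these data known. Listed symbols were matched to the annotation, CG4456 through an older name, and 1 with no match and 1 named by the rule are not reported here.

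Shares have exact (Clopper-Pearson) intervals and differences of shares Newcombe intervals, at 95%. No test over samples is possible with 1 group, so no p-value is given. A difference is called where its interval leaves out 0. Counting steps were tested on simulated data. Figures were drawn with matplotlib 3.10.9, and the values came from Python 3.11.15 with pandas 2.3.3, numpy 2.4.6 and scipy 1.17.1.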

Additional observations from a re-analysis of the deposited data

Results flagged for a closer look

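Off the chromosome arms, on unplaced or unlocalised sequences that the choice of candidates leaves out, 578 ranked peaks shared no base with a conservative peak. Of these, 13 had an IDR at or under 0.01 and 26 had a lower signal at or over that of the weakest candidate, the highest at 76.3. They were not placed in genes.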

How the results depend on the processing

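The excess of the GATA word at candidate summits over their flanks, 17.7 points, kept its direction and its call in 19 of 20 settings (11.8 to 21.2 points). With the 86 low-IDR candidates alone and both flanks averaged it was 16.9 points, and the interval of the count included 50%. The shortfall against the conservative list kept its direction in 17 of 17 settings and its call in 16 (−14.3 to −5.06 points), the exception being the 1000 weakest conservative peaks (−4.0). The difference in TSS share is the least stable. Of 16 settings, 9 kept direction and call. It turned in 2, at 0.800 points against the 1000 weakest conservative peaks and 2.92 points with candidates ranked by replicate 1 alone. The call was lost in 5. These were −3.28 points ranked by the IDR score, −4.06 with windows free of soft-masked sequence and −7.32 for the 86 alone. The others were −2.96 within 200 bp of a TSS and −3.11 within 1000 bp. Candidates were also ranked by the signal of 1 replicate alone, though every row still paired peaks of both replicates. The excess over the flanks was then 12.7 to 16.1 points. Against the conservative list, the difference was −13.8 to −11.6 points for the word and −16.2 to 2.92 for the TSS share. The causes were not tested. Genes with a candidate numbered 613 when the summit had to lie within 1 kb of a start and 503 with 500 candidates, which follows from the narrower window and the fewer peaks. Single flanks, the 86 alone and the 1000 weakest conservative peaks were chosen after the data were seen. With the second series-level list as the comparison, the flank result has no value of its own. The files give no reads, so depth and its limits on weak peaks cannot be assessed.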
